A study of Mus musculus with 2 samples.

Results

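The cells described here were Foxp3-positive T cells with transcripts of dividing cells, taken from mouse brains that carried a glioma. They were chosen by raw counts of unique molecular identifiers (UMIs, each standing for 1 captured RNA molecule). A barcode had to hold at least 200 detected genes and at most 10% of its UMIs from mitochondrial genes. It also needed at least 1 UMI of Cd3d, Cd3e and Cd3g together, at least 1 of Foxp3, none of Cd8a or Cd8b1, and at most 2 each of Lyz2 and C1qb. A cell was called cycling when Mki67, Top2a and Birc5 together gave at least 2 UMIs, and non-cycling when they gave at most 1. This left 125 cycling cells among 508 Foxp3-positive cells and 12478 kept cells. The wild-type library held 39 cycling and 157 non-cycling cells, and the library labelled Fcgr2b knockout held 86 and 226.

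Both groups of mice received 100000 GL261 cells, a mouse glioma line, and 200 µg of an antibody to PD-1 by intraperitoneal injection on days 10, 13 and 16. Brains were taken on day 20. Cells of 5 brains per genotype were pooled, cells that stained for CD45.2 and excluded the dye 7-AAD were sorted (living cells with a leukocyte surface marker), and 1 library per genotype was made with a 10x 5' kit. Fcgr2b encodes the inhibitory receptor for IgG, and the labels do not say which part of the gene was removed. Animals that received no antibody were not analysed here, so the antibody is shared by both groups and its effect cannot be read from them. With 1 pooled library per genotype there is no replicate: no statistical test between groups was run, no p-value is given, and every interval is a 95% interval for counting error only. The labels name polyA RNA for the wild-type library and total RNA for the other, and differences between genotypes cannot be told apart from differences between libraries. Fcgr2b gave 2 UMIs in the wild-type cycling cells and 8 in those of the library labelled knockout, 62.5% of the 8 in 1 cell. Reads at the 5' end may lie outside the removed part, so these counts do not check the label.

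Regulatory T cells restrain other T cells and depend on the transcription factor Foxp3, on CD25 (Il2ra), through which they take up interleukin 2, and on the inhibitory receptor CTLA-4. Entry into the cell cycle runs through release of E2F factors from the retinoblastoma protein, licensing of DNA by the Mcm helicase, synthesis of nucleotides and DNA, and then Cdk1 with cyclins A and B, which drive the cell into mitosis. Mki67 encodes the proliferation antigen Ki-67, Top2a a topoisomerase that untangles sister DNA, and Birc5 survivin, a part of the complex that corrects chromosome attachment.

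Transcripts of the selecting genes were far above the threshold in most cycling cells. The 3 genes gave a median of 13 UMIs per cell in the wild-type library, with a highest value of 37, and a median of 15 in the library labelled knockout, with a highest value of 94. At least 10 UMIs were found in 21 of 39 and 49 of 86 cells, and all 3 genes were detected together in 20 and 47. Just inside the threshold, at exactly 2 UMIs, lay 8 and 14 cells, and just outside it, at exactly 1 UMI, lay 28 and 48. Cells at exactly 2 UMIs held 377 and 546 CPM (UMIs scaled to 1000000 UMIs in all) of spindle, kinetochore and cytokinesis transcripts. Cells at 1 UMI held 354 and 367 CPM, and cells at 10 or more held 3287 and 4453 CPM. Replication transcripts were at 3367 CPM (2821 to 3988) and 2031 CPM (1738 to 2359.6) at exactly 2 UMIs against 1495 (1309 to 1700.0) and 1342 (1197 to 1499.9) at 1 UMI, and G2/M transcripts at 477 and 499 against 289.9 and 268 CPM. The cells at exactly 2 UMIs were thus near the cells at 1 in wild-type spindle transcripts and above them in replication transcripts.

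Of the labelled markers, Foxp3 was kept at low counts, with a median of 2 UMIs per cell in cycling and non-cycling cells of both libraries. A single Foxp3 UMI was the basis for 12 of 39 and 29 of 86 cycling cells. Foxp3 UMIs in cells that should lack them give the background. They were found in 0 of 217 wild-type cells and 13 of 1510 cells (0.861%, exact 0.459 to 1.47) of the library labelled knockout with at least 10 Lyz2 UMIs and no Cd3 UMI, at median depths of 4005 and 6362 UMIs. The exact interval for 0 of 217 reaches 1.69%. In Cd4-positive, Cd8-negative T cells the shares were 20.9% and 23.9% at median depths of 3834 and 4719.5 UMIs, and in Cd8-positive, Cd4-negative T cells 3.40% and 3.65%. Cd4 UMIs were present in 24 of 39 and 61 of 86 cycling cells.

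Cycling cells held more RNA molecules than their non-cycling counterparts. The median was 11110 UMIs against 3211 in the wild-type library and 10402 against 3390 in the library labelled knockout, with medians of 3266 against 1523 and 3206 against 1558 detected genes. More than 20000 UMIs were found in 3 and 13 cycling cells and in 1 and 2 non-cycling cells. Since a deep cell reaches 2 UMIs more easily, depth entered the selection itself, and results are also given for cells of 4000 to 15000 UMIs. In that range medians were 10287 against 5885 UMIs and 9052 against 5744, so depth was narrowed but not made equal. The range kept 23 and 57 cycling and 51 and 90 non-cycling cells.

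Markers of other cell types were present at different levels. Over the 12 macrophage and monocyte markers the summed level was 176 and 266 CPM in cycling cells and 379 and 427 CPM in non-cycling cells, most of it Ccr2, which T cells also express, with 6 and 10 of the 12 markers seen in cycling cells. C1qa, C1qc, Adgre1, Fcgr3 and Ms4a7 gave no UMI in wild-type cycling cells. The microglial genes Tmem119, P2ry12 and Sall1 gave none in either library, nor did the erythroid genes, and neutrophil markers gave 0 and 5 UMIs. The 6 B and plasma cell markers gave 4 and 39 UMIs in cycling cells, 92.3% of the 39 from 1 cell. The 9 dendritic cell markers, led by Cd74 and H2-Aa, reached 1338 and 1366 CPM in cycling cells against 2973 and 3246 CPM in non-cycling cells, beside 1483 and 2049 CPM for 5 Cd4 T cell markers in cycling cells, and 28.6% and 42.4% of the cycling UMIs came from 1 cell. No barcode of a cycling cell occurred in both libraries, although 46 barcodes were shared by the libraries as a whole. Removing the most doublet-like barcodes took out 4 of 39 and 5 of 86 cycling cells.

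The share of Foxp3-positive cells that were cycling was compared with that of other T cells of the same gate. In the wild-type library 39 of 196 Foxp3-positive cells were cycling (19.9%, exact 14.5 to 26.2), and in the library labelled knockout 86 of 312 (27.6%, 22.7 to 32.9). The ratio was 1.39, with a score interval of 0.999 to 1.94. The shares in Foxp3-negative, Cd4-positive cells were 16.8% and 18.3%, and in Cd8-positive cells 19.1% and 24.4%. When every cell was thinned to 2000 UMIs and gated afterwards, cycling cells made up 11 of 101 and 26 of 193 Foxp3-positive cells (10.9% and 13.5%, ratio 1.24, 0.652 to 2.39). Thinning left 11.1% and 11.2% of the Cd4-positive and 16.4% and 17.7% of the Cd8-positive cells as cycling. Cells under 2000 UMIs were left out, 37 and 42 of the Foxp3-positive cells. Where only the proliferation UMIs were thinned and the gate was kept from all UMIs, 21 of 159 and 55 of 270 Foxp3-positive cells were cycling (13.2% and 20.4%, ratio 1.54, 0.982 to 2.46). The Foxp3-negative Cd4-positive cells gave 11.5% and 11.2% in the same way, and the Cd8-positive cells 15.8% and 17.2%. Under the latter scheme the Foxp3-positive interval of the library labelled knockout, 15.7 to 25.7, lay above that of Cd4-positive cells, 8.58 to 14.2. It overlapped that of Cd8-positive cells, 15.2 to 19.3. As counted, the Foxp3-positive interval of that library, 22.7 to 32.9, also lay above that of Cd4-positive cells, 15.2 to 21.8. It overlapped that of Cd8-positive cells, 22.3 to 26.6. In wild type (8.37 to 19.5 and 8.19 to 15.4 under the latter scheme) the Foxp3-positive and Cd4-positive intervals overlapped. They also did in the fully thinned cells of both libraries. The intervals of the ratio between libraries reached below 1 in all 3 schemes. As a share of all kept cells, cycling regulatory T cells were 1.07% (0.759 to 1.46) and 0.975% (0.781 to 1.20), a ratio of 0.914 (0.629 to 1.33). The Foxp3-positive gate as a whole took 5.36% and 3.54% of kept cells.

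**Figure D1:**
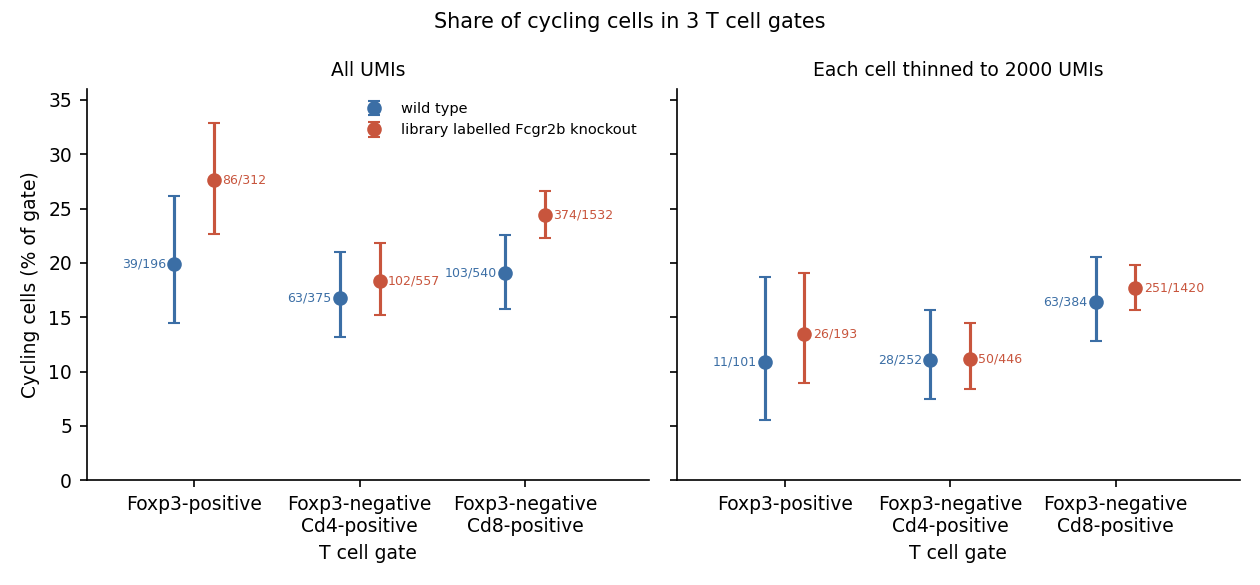
Share of cycling cells in % (y axis) of each T cell gate (x axis), with all UMIs on the left and each cell thinned to 2000 UMIs on the right; points are single libraries, bars are exact 95% intervals for counting error, and fractions give cells. The intervals of the 2 libraries overlap in the Foxp3-positive gate in both panels.

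Cells with mainly S-phase transcripts and cells with mainly mitotic transcripts were both present. S-phase transcripts were summed over the replication and nucleotide lists, and mitotic transcripts over the G2/M, spindle and mitotic exit lists without Mki67, Top2a and Birc5. Cycling cells held a median of 53.2 and 50.4 S-phase UMIs per 10000 (non-cycling 14.0 and 14.5) and 44.3 and 51.4 mitotic UMIs (non-cycling 10.2 and 10.5). Mitotic UMIs outnumbered S-phase UMIs in 13 of 39 and 39 of 86 cycling cells. They also did in 40 of 157 and 60 of 226 non-cycling cells, at the lower medians given, so the cut alone does not mark dividing cells. It is a cut through a range: in 16 and 23 cycling cells the mitotic share of the sum lay between 40% and 60%.

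**Figure D2:**
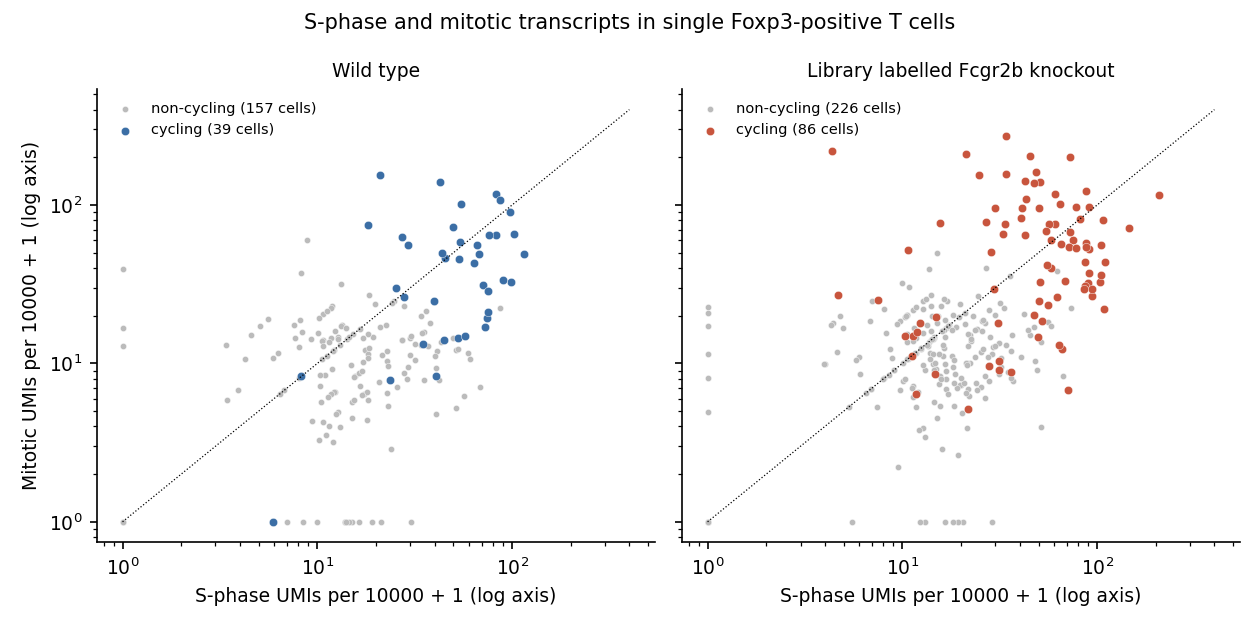
S-phase (x axis) and mitotic (y axis) UMIs per 10000 UMIs, plus 1, on log axes, in each Foxp3-positive cell of the wild-type library (left) and the library labelled Fcgr2b knockout (right). Coloured points are the 39 and 86 cycling cells and grey points the 157 and 226 non-cycling cells; the dotted line marks equal values, with 13 and 39 cycling cells above it.

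Ikzf2, which encodes Helios, a transcription factor of regulatory T cells, was higher in the more mitotic cells. Its level there was 1721 CPM (Poisson 1508 to 1956) against 908 CPM (802 to 1025) in the other cycling cells of the wild-type library, and 1274 CPM (1171 to 1383) against 783 CPM (711 to 859.9) in the library labelled knockout. Leaving out the cell with the most Ikzf2 UMIs gave 1577 against 869 and 1206 against 747 CPM. Median depths were 10287 against 11270 and 9214 against 10835 UMIs. Other regulatory T cell genes did not separate the groups in both libraries: Il2ra was at 1216 against 1523 CPM in wild type and 1235 against 1052 CPM in the library labelled knockout, and Ctla4 at 1318 against 1057 and 1167 against 1079 CPM. Ikzf2 was singled out after its values were seen.

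Cycling and non-cycling cells were then compared gene by gene within each library, from UMIs summed over cells. A log2 ratio is given throughout with 20 CPM added to both levels, and a gene counted as measured when it reached 50 CPM in cycling or non-cycling cells of each library. Of 3352 measured genes, 115 (3.43%) had a log2 ratio of at least 1 in both libraries and 25 (0.746%) of at most -1. Mki67, Top2a and Birc5, whose direction the selection fixed, were counted among the 115. Within wild type alone 161 (4.80%) were at 1 or above and 136 (4.06%) at -1 or below, and within the library labelled knockout alone 153 (4.56%) and 45 (1.34%). The median over all measured genes was -0.07 and -0.04. The selection used proliferation genes of these very cells, so this comparison is a description. A cell cycle gene could also pass 50 CPM through the cycling cells alone, so counts among measured members support nothing further.

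**Figure D3:**
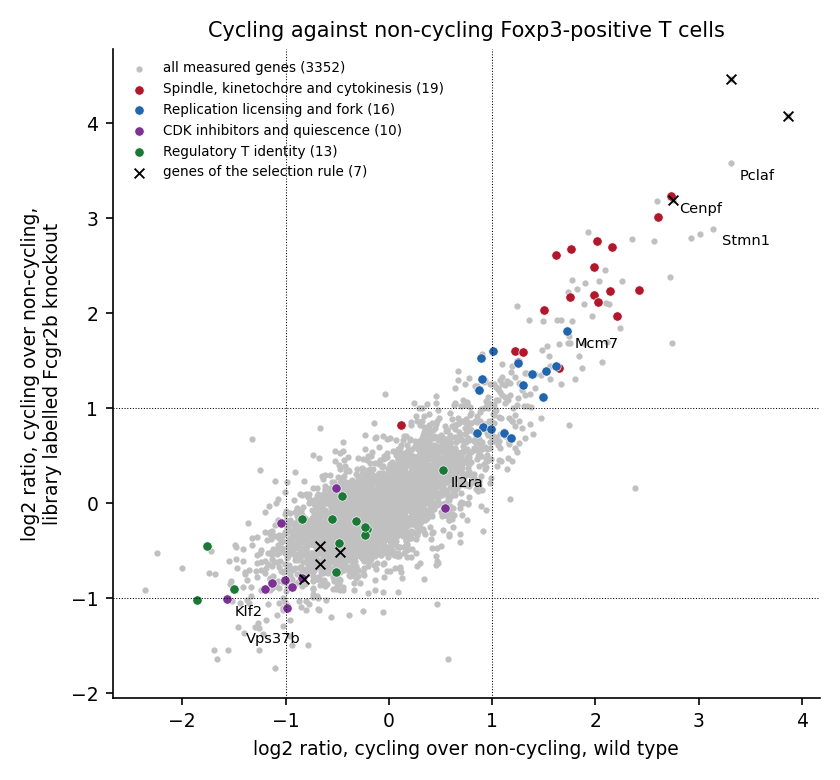
Log2 ratio of cycling over non-cycling cells in the wild-type library (x axis) and the library labelled Fcgr2b knockout (y axis) for 3352 measured genes; colours mark 4 gene lists, crosses the genes used for selection, and dotted lines a ratio of 1 or -1. Spindle genes lie at the upper right in both libraries and regulatory T identity genes around and below 0.

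Genes of DNA replication were higher in cycling cells. Pclaf, which binds the sliding clamp PCNA and lies at chr9:65890237-65903266 (GRCm38, as all positions here), stood at 354 CPM in wild-type cycling cells against 17.8 CPM in non-cycling cells, a fold of 19.9 (exact 10.8 to 40.8). In the library labelled knockout it stood at 444 against 18.7 CPM (23.7, 15.0 to 39.8). Rrm2, a subunit of ribonucleotide reductase, was at 167 against 3.23 CPM and 164 against 5.91 CPM, and its partner Rrm1 had log2 ratios of 2.04 and 2.12. Of 36 replication licensing and fork genes 16 were measured, 8 of them with a log2 ratio of at least 1 in both libraries. All 16 were above 0 in both (1187 of 3352 among all genes), and the median was 1.15 and 1.27. Mcm7, a subunit of the replicative helicase (chr5:138164583-138172422), had the largest ratio of that list, at 157 against 33.9 and 171 against 34.5 CPM. Of 12 measured nucleotide synthesis genes 6 reached 1 in both, among them Tyms, which makes thymidylate (1.82 and 2.26). G1/S regulators included Gmnn, which prevents a second licensing of DNA (2.11 and 1.70), and Uhrf1, which carries DNA methylation over to new strands (1.90 and 2.32), with 4 of 10 measured genes at 1 or above in both. Ccnd2, a cyclin of early G1, had ratios of 0.10 and -0.26.

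The spindle list had the highest median of the lists. Cdk1, the kinase that starts mitosis (chr10:69335146-69352938), was at 122 against 1.61 CPM in wild type and 110.0 against 4.93 CPM in the library labelled knockout, and was detected in 27 and 43 cycling cells against 1 and 5 non-cycling cells. Its partner Ccna2, cyclin A2, gave no UMI in the wild-type non-cycling cells, and its level of 82.1 CPM was at least 17.0-fold higher than the 3 counts that a sum of 0 allows over that group. Cenpf, a large kinetochore protein (chr1:189640606-189688086), was at 113 CPM against 0 in wild type, 23.3-fold the same floor. In the library labelled knockout it was at 196 against 2.96 CPM (66.3-fold, 22.4 to 324). Of the 41 spindle, kinetochore and cytokinesis genes 19 were measured, 18 of them at 1 or above in both, with a median of 1.99 and 2.19. The exception was Cenpa, the centromeric histone, with 0.12 and 0.82. Stmn1, which destabilises microtubules, was at 497 against 38.8 and 667 against 72.9 CPM. Of 29 measured condensin, cohesin, histone and chromatin genes 21 reached 1 in both, Smc2 of condensin with 2.57 and 2.76. In cells of 4000 to 15000 UMIs the list medians stayed at 1.04 and 1.23 for replication and 2.0 and 2.41 for the spindle.

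The same lists were similarly placed in the other T cells, given side by side. The spindle genes had medians of 1.89 and 2.08 between cycling and non-cycling Foxp3-negative Cd4-positive cells and 2.26 and 2.31 in Cd8-positive cells, and the replication genes 1.12 and 0.87, and 1.02 and 1.19.

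Promoters of the leading replication, G2/M and spindle genes are shown because these genes were higher together and known cell cycle elements can be looked up in them. They are RefSeq promoters of GRCm38.p6, 250 bases before to 50 after the annotated start, on the minus strand for all 3 genes and written 5′ to 3′. Capitals mark matches, on either strand, to the cell cycle homology element, searched as TTTGAA, and to the box bound by NF-Y, searched as CCAAT. E2F sites were searched in 4 spellings, of which the first was TTGGCGC, the second spelling was TTCCCGC, the next spelling was TTCGCGC, and the last spelling was TTGCCGC. Mcm7 has 2 promoters in the table, of which the first is shown.
Mcm7, chr5:138171834-138172133: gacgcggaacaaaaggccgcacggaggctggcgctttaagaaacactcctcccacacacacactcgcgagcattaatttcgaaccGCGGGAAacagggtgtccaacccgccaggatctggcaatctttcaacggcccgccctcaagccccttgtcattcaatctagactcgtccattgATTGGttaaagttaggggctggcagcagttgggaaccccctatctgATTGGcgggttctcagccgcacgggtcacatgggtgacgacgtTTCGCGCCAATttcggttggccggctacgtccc
Cdk1, chr10:69352863-69353162: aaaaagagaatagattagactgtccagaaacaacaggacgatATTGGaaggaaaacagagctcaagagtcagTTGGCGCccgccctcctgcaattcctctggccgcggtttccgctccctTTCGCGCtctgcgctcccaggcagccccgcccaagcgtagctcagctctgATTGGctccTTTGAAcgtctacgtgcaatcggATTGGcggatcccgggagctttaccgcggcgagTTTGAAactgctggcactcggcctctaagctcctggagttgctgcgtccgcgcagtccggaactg
Cenpf, chr1:189688037-189688336: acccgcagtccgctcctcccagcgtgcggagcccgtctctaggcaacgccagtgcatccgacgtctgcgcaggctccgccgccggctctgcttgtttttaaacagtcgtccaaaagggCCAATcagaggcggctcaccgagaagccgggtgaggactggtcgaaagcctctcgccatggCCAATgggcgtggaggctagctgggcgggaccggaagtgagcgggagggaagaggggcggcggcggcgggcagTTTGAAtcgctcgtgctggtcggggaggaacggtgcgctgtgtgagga

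In these windows Mcm7 held E2F letters and no TTTGAA, Cenpf held TTTGAA and CCAAT but no E2F letters, and Cdk1 held all 3 kinds. In Mcm7 the matches starting 17, 20 and 23 bases after the start overlap. A promoter was in the table for 88 of the 115 genes with higher levels and for 2691 of the 3352 measured genes. The 115 included Mki67, Top2a and Birc5 of the selection rule. TTTGAA together with CCAAT occurred in 36.4% of the 88, 5.57% of the 2691 and 7.12% of all 27025 promoters. E2F letters occurred in 43.2%, 19.1% and 9.69%, CCAAT with or without TTTGAA in 70.5%, 38.3% and 37.9%, and TTTGAA with or without CCAAT in 39.8%, 12.1% and 18.1%. By list, TTTGAA occurred in 12 of 16 spindle promoters and 1 of 14 replication promoters, and E2F letters in 1 of 16 and 7 of 14. A match is a run of letters and was not tested as a binding site.

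Genes lower in cycling cells were fewer and depended more on depth. Vps37b, a subunit of the ESCRT-I sorting complex (chr5:124004641-124032270), was at 176 CPM in wild-type cycling against 518 CPM in non-cycling cells and at 164 against 433 CPM in the library labelled knockout. Its log2 ratios of -1.46 and -1.30 were -0.79 and -0.73 in cells of 4000 to 15000 UMIs. Tcp11l2 kept its place there, with -1.69 and -1.55 in all cells and -1.21 and -1.26 in that range, on only 2 and 16 cycling UMIs. Emb, which encodes embigin, a partner of monocarboxylate transporters, had -1.26 and -1.31, and -0.74 and -1.13 in the range. Klf2, a factor of T cell quiescence and lymphoid homing, was at 98.6 against 331 and 86.0 against 193 CPM, but its ratios of -1.57 and -1.01 shrank to -0.11 and -0.09. Over the whole set, 25 genes were lower in both libraries in all cells, 31 without each gene's top cell and 3 in cells of 4000 to 15000 UMIs. The 115 higher genes became 95 without each gene's top cell and 105 in that depth range. Cst3, H2-Aa, H2-Ab1, H2-Eb1, Lgals3, Plbd1 and Spp1 also passed -1 in both libraries. Antigen-presenting and other myeloid cells express these genes strongly, 1 cell gave between 25% and 64.7% of each gene's cycling UMIs, and the part of other cells' RNA in these differences was not tested.

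CDK inhibitors and antiproliferative genes were mostly lower in cycling cells. Of the 16 listed genes 10 were measured, 8 of them below 0 in both libraries (1428 of 3352 among all genes). At -1 or below in both was 1, Klf2, beside 25 of 3352 (0.746%). In wild type alone 5 of the 10 were at -1 or below, beside 4.06% of all genes. In the library labelled knockout alone 2 were, beside 1.34%. The list median was -1.0 and -0.83. In cells of 4000 to 15000 UMIs the median was -0.44 and -0.27. Btg1, an antiproliferative factor, was at 838 against 1689 and 568 against 1244 CPM. Cdkn1b, which encodes the inhibitor p27, was at 89.2 against 176 and 74.0 against 143 CPM. Cdkn1a, which encodes p21, differed in sign, at 159.6 against 236 and 307 against 272 CPM, with log2 ratios of -0.51 and 0.16.

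**Figure D4:**
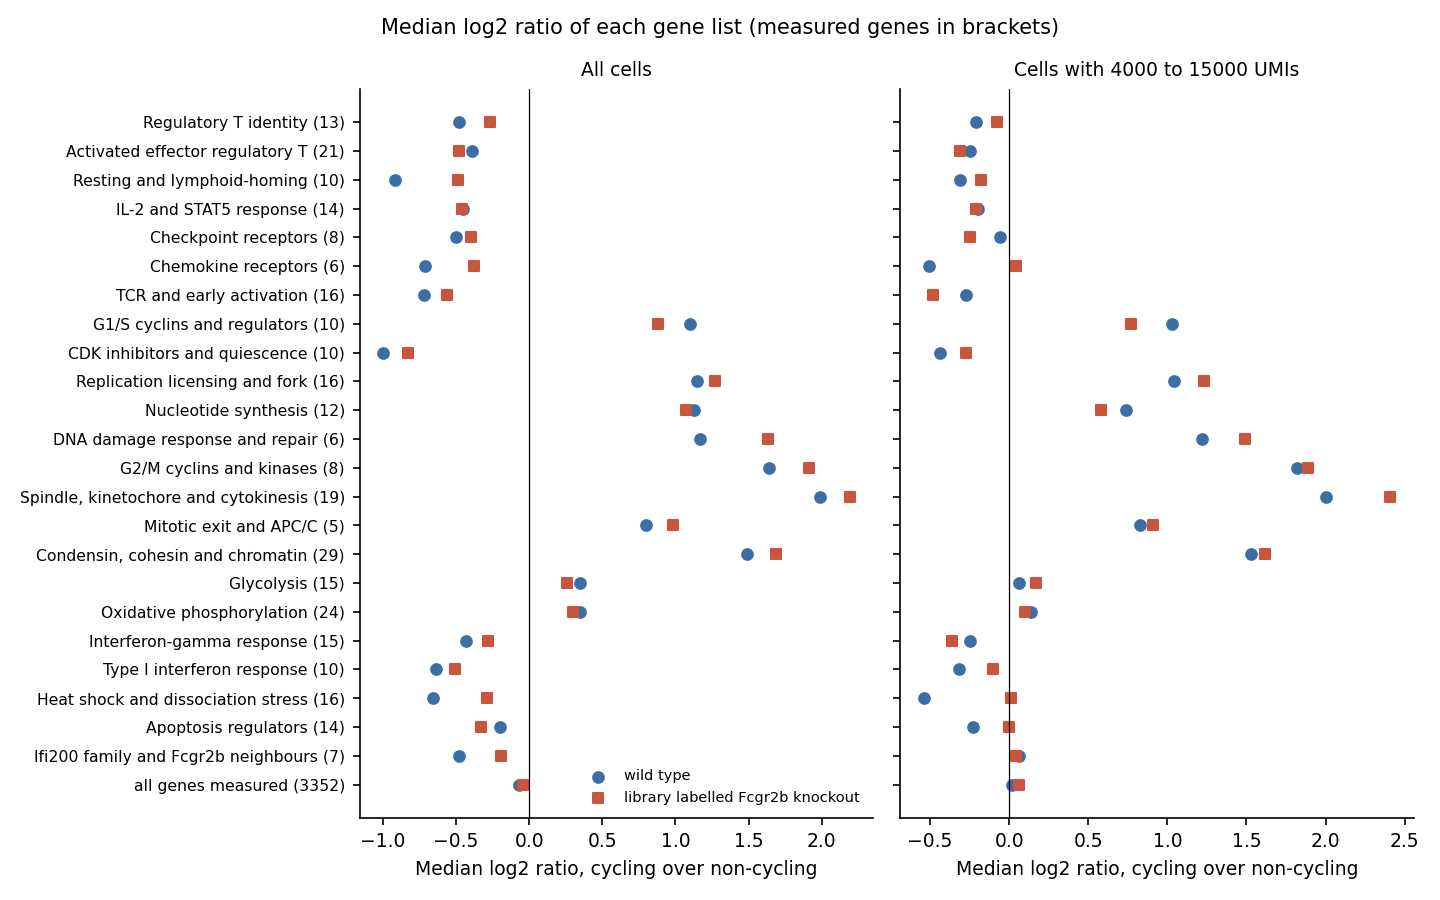
Median log2 ratio of cycling over non-cycling cells (x axis) for each gene list with at least 5 measured genes (y axis; brackets give genes measured in all cells), in the wild-type library (circles) and the library labelled Fcgr2b knockout (squares), for all cells on the left and cells of 4000 to 15000 UMIs on the right. The spindle list lies near 2 in both panels, and most lists below 0 lie nearer to 0 on the right; interferon-gamma response (library labelled knockout) and apoptosis regulators (wild type) do not.

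Genes that define regulatory T cells were detected at high level in cycling cells, though mostly at lower CPM than in non-cycling cells. Il2ra stood at 1424 against 988 CPM in wild type (1.44-fold, 1.29 to 1.62) and 1133 against 886 CPM (1.28-fold, 1.17 to 1.40) in the library labelled knockout. Ctla4 stood at 1140.4 against 1427 and 1118 against 1281 CPM, and Ikzf2 at 1169 against 1371 and 1000.2 against 1272 CPM. The Ikzf2 ratios of -0.23 and -0.34 became 0.41 and 0.17 in cells of 4000 to 15000 UMIs. Of 16 listed identity genes 13 were measured outside the selection. Of these 11 were below 0 and 1 above 0 in both libraries, beside 1428 and 1187 of all 3352 genes, and the median was -0.48 and -0.27. None was at 1 or above in both libraries and 1 at -1 or below, beside 115 and 25 of all 3352 genes. The 1 gene was Nt5e, which encodes CD73, an enzyme that makes adenosine, at 44.6 against 215 and 77.0 against 176 CPM. Lrrc32, which presents latent TGF-beta, was at 122 against 381 and 77.0 against 161 CPM. Foxp3, at 317 against 575 and 243 against 438 CPM, cannot be compared, because at least 1 UMI was demanded of cells of very different depth.

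Of 21 measured effector genes of regulatory T cells 15 were below 0 in both libraries and 2 at -1 or below, beside 1428 and 25 of all 3352 genes. The medians were -0.39 and -0.48, and -0.25 and -0.31 in the narrower depth range. The 2 genes were Areg, which encodes the tissue repair factor amphiregulin (218 against 625 and 329 against 702 CPM), and Il10, which encodes a suppressive cytokine (91.5 against 207 and 87.0 against 241 CPM). In cells of 4000 to 15000 UMIs the Areg ratios were -0.93 and -0.98 and those of Il10 -0.25 and -0.33. Lag3, an inhibitory receptor for MHC class II (chr6:124904361-124911705), was at 289 against 579.7 and 231 against 570.4 CPM, with ratios of -0.96 and -1.23, and -0.69 and -1.11 in that range. Tnfrsf9, which encodes the costimulatory receptor 4-1BB, was at 1037 against 1364 and 905 against 930.0 CPM. Tigit differed in sign, at 145 against 131 CPM in wild type and 251 against 447 CPM in the library labelled knockout.

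Metabolic lists had smaller medians than the cell cycle lists. None of 15 measured glycolysis genes and none of 24 measured oxidative phosphorylation genes reached a log2 ratio of 1 in either library. Over all 3352 genes 4.80% and 4.56% did, so a count of 0 in lists of this size is near the share over all genes. The medians were 0.35 and 0.26, and 0.35 and 0.30. Ldha, which makes lactate, was at 967 against 612 and 995 against 604 CPM. In cells of 4000 to 15000 UMIs the glycolysis median was 0.06 and 0.17. Early activation genes had medians of -0.72 and -0.56, type I interferon response genes -0.64 and -0.51, and heat shock and dissociation stress genes -0.66 and -0.29. None of these genes was at -1 or below in both libraries, beside 25 (0.746%) of all 3352 genes. In the narrower range these medians were -0.27 and -0.48, -0.32 and -0.10, and -0.54 and 0.01.

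Cycling Foxp3-positive cells were next set beside cycling Foxp3-negative, Cd4-positive cells, 63 and 102 cells, which were chosen in the same way but for 0 Foxp3 UMIs and at least 1 Cd4 UMI. The Foxp3-positive gate asked for no Cd4 UMI, so the groups differ in that demand too. Of 3184 measured genes, 28 (0.879%) had a log2 ratio of at least 1 in both libraries and 49 (1.54%) of at most -1. Ikzf2 led the higher genes, at 1169 against 248 and 1000.2 against 244 CPM (2.15 and 1.95), followed by Il2ra at 1424 against 415 and 1133 against 369 CPM (1.73 and 1.57). Lrrc32, Tnfrsf8 (CD30), Izumo1r (the folate receptor FR4), Klrg1 and Il1rl1, the receptor for interleukin 33, were also higher, as were Il10 and Gzmb, which encodes granzyme B (798 against 278 and 658 against 190.3 CPM). Ass1, which makes the precursor of arginine, was at 169 against 37.2 and 175 against 45.9 CPM. Of the 13 identity genes measured here 4 were at 1 or above in both, and 1 at -1 or below, Nrp1 (30.5 against 181 and 29.0 against 105 CPM).

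Of 6 measured helper T cell factors and cytokines 3, Ifng, Tnf and Cd40lg, were at -1 or below in the cycling Foxp3-positive cells of both libraries and 1, Il10, at 1 or above. Ifng, which encodes interferon gamma, was at 18.8 against 1606 and 262 against 1707 CPM, Tnfsf11 (RANK ligand) at 56.3 against 585 and 44.0 against 391 CPM, and Cd40lg (CD40 ligand) at 7.04 against 165 and 25 against 137 CPM. Csf2, which encodes GM-CSF, gave no UMI in wild-type cycling regulatory cells against 546 CPM, and 19.0 against 131 CPM in the library labelled knockout. Receptors typical of natural killer cells were also among the 12 lowest genes: Klrd1 at 2.35 against 109.9 and 2.0 against 142 CPM, and Klrc1 at 7.04 against 197 and 18 against 107 CPM. What part cells with these receptors had in the cytokine levels of the Cd4-positive cells was not tested. Among the cell cycle lists, none of the 22 spindle, 17 replication or 9 G2/M genes measured here passed 1 or -1 in both libraries, and their medians lay between -0.16 and 0.45.

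Receptor segments could be read only in part. A Trbv UMI, from a variable segment of the T cell receptor beta chain, was seen in 6 of 39 wild-type cycling cells and 43 of 86 in the library labelled knockout, and in 10 of 157 and 79 of 226 non-cycling cells, so the libraries differed in how often segments were captured. In the library labelled knockout the 43 cycling cells carried 14 segments. Trbv13-2 and Trbv19 were the most frequent, in 7 cells each (16.3%, 6.81 to 30.7), and in 19.0% and 13.9% of the 79 non-cycling cells. Clones cannot be counted from segments alone.

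The cycling cells of both genotypes were compared last. A gene was measured here if either library reached 50 CPM. Of 3620 such genes, 50 (1.38%) were at a log2 ratio of at least 1 in the library labelled Fcgr2b knockout over wild type and 50 (1.38%) at -1 or below. Mki67, used for selection, was counted among the 50 higher genes. In the non-cycling cells 23 (0.633%) and 45 (1.24%) of 3632 genes passed. With 39 cells in the smaller group, a gene expressed strongly by 1 cell could pass by itself. Without each gene's top cell, 63 genes were at 1 or above and 27 at -1 or below.

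Ccl3, Ccl4 and Ccl5 were higher in the library labelled knockout. Ccl3 was at 39.9 CPM in wild-type and 468 CPM in knockout-labelled cycling cells (11.7-fold, 7.25 to 20.3), in 7 of 39 and 35 of 86 cells. In B cells (Cd79a and Ms4a1 UMIs, no Cd3 UMI) 5.26% of 38 and 7.44% of 121 barcodes held a Ccl3 UMI, at median depths of 2198 and 4167 UMIs, and in cells with at least 10 Lyz2 UMIs and no Cd3 UMI 32.3% and 46.0%. Some macrophage markers other than Ccr2 were also higher in the cycling cells of the library labelled knockout, in 999810 UMIs against 426156. Apoe gave 15 against 1, Lyz2 12 against 3, Fcgr3 10 against 0 and C1qb 9 against 0. The selection limited Lyz2 and C1qb to at most 2 UMIs per cell. Cd68 gave 11 against 7 UMIs, a lower level in the library labelled knockout. Adgre1 and Ms4a7 gave none in the cycling cells of either library. The part of macrophage RNA in the chemokine levels was not tested. Ccl4 was at 159.6 and 694 CPM and Ccl5 at 106 and 618 CPM. All 3 are chemokines that attract T cells and myeloid cells. In non-cycling cells the folds were smaller, at 2.21 for Ccl3, 2.52 for Ccl4 and 2.09 for Ccl5, and in cycling Foxp3-negative Cd4-positive cells the log2 ratios were 2.35, 1.15 and 1.95. Ccl1 (168 CPM from 2 cells), Ifng (77.5% of UMIs from 1 cell) and Lgals7 (77.2% from 1 cell) were also among the 10 highest and rested on single cells.

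The checkpoint receptor list, which also holds the ligand gene Cd200, had 8 measured genes. Of these 2, Pdcd1 and Cd200, were at 1 or above and none at -1 or below. Among all 3620 genes 50 (1.38%) passed in each direction. The median was 0.20, beside 0.04 for all genes. Pdcd1, which encodes PD-1, the target of the injected antibody (chr1:94038305-94052553), was at 49.3 CPM in wild type, in 15 of 39 cells, and 158 CPM in the library labelled knockout, in 52 of 86 (3.21-fold, 2.03 to 5.33). In cells with at least 10 Lyz2 UMIs and no Cd3 UMI, 0 of 217 and 0.993% of 1510 held a Pdcd1 UMI and 0.461% and 1.06% a Cd200 UMI. Among B cells (Cd79a and Ms4a1 UMIs, no Cd3 UMI), 2.63% of 38 and 0.826% of 121 held a Pdcd1 UMI. A Cd200 UMI was held by 13.2% and 18.2% of them, and their part in the Cd200 levels was not tested. The fold in non-cycling cells was 1.39 (1.04 to 1.87), and the log2 ratio in cycling Foxp3-negative Cd4-positive cells was -0.24. Across the alternatives other than thinning the Pdcd1 log2 ratio of 1.36 lay between 1.07 and 1.59. Cd200, a ligand that restrains myeloid cells (chr16:45382135-45409053), was at 25.8 and 145 CPM (5.62-fold, 3.05 to 11.5), in 9 and 43 cells, and at 1.72-fold in non-cycling cells. Ctla4 stood at 1140.4 and 1118 CPM and Il2ra at 1424 and 1133 CPM. Whether the ratio differed between cycling and non-cycling cells was not tested for any of these genes.

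Some of the genes that differed most did so in all Foxp3-positive cells. Odc1, which encodes ornithine decarboxylase, the first enzyme of polyamine synthesis (chr12:17544794-17551505), was at 1483 CPM in wild-type cycling cells, in 34 of 39, and at 287 CPM in those of the library labelled knockout. Its log2 ratio was -2.29 in cycling and -2.64 in non-cycling cells, and -1.72 and -1.33 in cycling Cd4-positive and Cd8-positive cells. Slx1b (-2.34 and -2.18), AI506816 (-1.48 and -2.06), AA467197 (-1.54 and -2.08) and CAAA01147332.1 (2.03 and 1.95) likewise had ratios of 1 sign in cycling and non-cycling cells. S100a11, a calcium-binding protein, was at 174 and 574 CPM (1.62, and 1.16 in non-cycling cells). The metallothioneins Mt1 and Mt2, which bind zinc and copper, were at 669 and 338 CPM in wild-type cycling cells and 195 and 45 CPM in the library labelled knockout, ratios of -1.68 and -2.46 against -0.48 and -0.76 in non-cycling cells. Gzma, Gzmc and Gzmd, granzymes of cytotoxic lymphocytes, were at 1657, 425 and 117 CPM in wild type, but 96.3% of the Gzma, 98.9% of the Gzmc and all of the Gzmd UMIs came from 1 cell, and Gzmc and Gzmd are close paralogs whose reads may be shared.

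**Figure D5:**
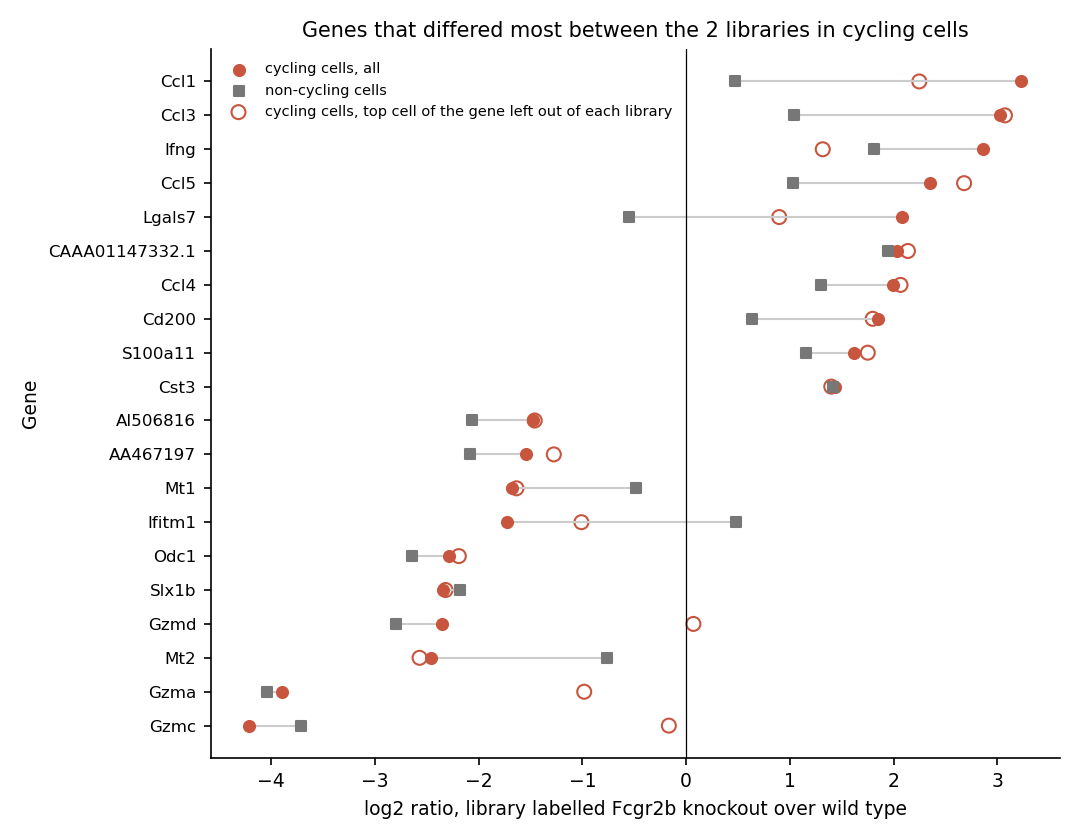
Log2 ratio of the library labelled Fcgr2b knockout over wild type (x axis) for the 10 highest and 10 lowest genes in cycling regulatory T cells (y axis): filled circles show all cycling cells, open circles cycling cells without the top cell of the gene, and squares non-cycling cells. Gzma, Gzmc and Gzmd move toward or past 0 without their top cell, while Odc1, Slx1b and CAAA01147332.1 stay beyond 1 or -1 in all 3.

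Most cell cycle genes, like most of all 3620 genes measured, did not pass the threshold between the genotypes. Over all genes 50 (1.38%) passed in each direction. None of 22 replication genes and none of 12 G2/M genes measured passed 1 or -1, and a count of 0 in lists of this size is near that share. Their medians were 0.13 and 0.27 beside 0.04 for all genes. The spindle list had a median of 0.34, with 26 of 28 measured genes above 0, beside 1965 of all 3620 genes. At 1 or above were 2 of them: Ckap2l, on 6 and 59 UMIs, and Nuf2, on 7 and 57 UMIs. Of 29 measured condensin, cohesin, histone and chromatin genes 3 passed, with a median of 0.32. They were the replication-dependent histones Hist1h1b (86.8 and 226 CPM) and Hist1h2ae (150.2 and 349 CPM), which were higher, and Hist1h2ap (157 and 57.0 CPM), which was lower. Histone genes of 1 family are near-identical, and reads may be split among them. Mki67, used for selection, was at 387 and 966 CPM, and Top2a, also used, at 622 and 687 CPM.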

How the data were processed

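Raw UMI counts per gene and cell barcode were deposited. Cell Ranger 6.1.2 produced them, per the file headers, and the submitters' processing notes give mm10 (GRCm38). No source used here names the annotation release. The tissue is labelled brain, although the protocol for sorting speaks of lung. Both tables hold 32285 genes, 3854 and 9194 barcodes and 14170828 and 50921793 UMIs, and at least 500 UMIs per barcode. Of these, 3657 and 8821 barcodes were kept, with medians of 2686 and 4224 UMIs.

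Counts were summed over the cells of a gate and divided by the gate's total (426156 and 999810 UMIs in cycling cells) to give CPM. Ratios used 20 CPM added to each level. Intervals are exact Poisson for levels, exact conditional for folds, Clopper-Pearson for shares and a score interval for ratios of shares. Doublets were kept, and were removed in an alternative with a score from simulated pairs (0.8% per 1000 barcodes). The ratio scripts were checked on simulated counts. Named genes were the 12 highest and 12 lowest ratios for cycling, the 10 highest and 10 lowest for genotype at 100 CPM or more, 2 to 4 leading members of each of 25 lists, and 10 fixed genes. Genes of the selection rule and mitochondrial, ribosomal, antigen receptor, immunoglobulin, haemoglobin, predicted and sex-linked genes were not ranked. The 12 highest and 12 lowest genes against cycling Cd4-positive cells, and genes named outside these rules, were chosen after their values were seen. The members and lists were chosen with earlier results of these data known. Gene positions came from GENCODE vM21 for 32235 of the genes. Python 3.11.15, NumPy 2.4.6, SciPy 1.17.1 and pandas 2.3.3 were used. No column of values was left unmapped.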

Additional observations from a re-analysis of the deposited data

Results flagged for a closer look

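In 3 named genes the cycling cells lay above the non-cycling cells in 1 library and below them in the other, with counting intervals of the folds on opposite sides of 1; the difference itself was not tested. Ccl3 had log2 ratios of -1.32 in wild type (0.309-fold, 0.171 to 0.526) and 0.68 in the library labelled Fcgr2b knockout (1.64, 1.41 to 1.90), where 30.3% of the 468 cycling UMIs came from 1 cell. Ifitm1, an interferon-induced membrane protein, had 0.57 (1.52, 1.21 to 1.89) and -1.64 (0.284, 0.226 to 0.353), with 63.7% of the 168 wild-type cycling UMIs from 1 cell. Mt1 had 0.91 (1.94, 1.62 to 2.32) and -0.29 (0.805, 0.663 to 0.975).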

How the results depend on the processing

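No paired analysis was possible because each genotype has 1 library. Of the 16 alternatives run, limits at 20000 UMIs and at 4000 to 15000 UMIs and leaving out each gene's top cell were chosen after seeing the data. The cycling share of Foxp3-positive cells was 10.9% (wild type) and 13.5% (library labelled Fcgr2b knockout) after thinning, and 34.9% in the latter among cells with a Cd4 UMI. Cycling cells per kept cell were 0.738% and 0.646% with at least 2 Foxp3 UMIs, 0.656% and 0.692% with a Cd4 UMI, and 1.59% in wild type with at least 1000 genes. Genes higher in cycling cells numbered 65 with 50 CPM added and 178 without a minimum level. Genes lower numbered 44 with 5 CPM and 10 with 50 CPM added, 15 scaled by the median ratio, 15 as a mean over cells, 11 up to 20000 UMIs, 3 in cells of 4000 to 15000 UMIs and 99 thinned. Between genotypes, higher genes numbered 77 with at least 2 Foxp3 UMIs, 98 and 24 with 5 and 50 CPM added, 89 as a mean over cells, 110 in cells of 4000 to 15000 UMIs and 1353 thinned. Lower genes numbered 96 with a Cd4 UMI, 78 and 23 with 5 and 50 CPM added, 27 without the top cell and 694 thinned. The thinned sums rest on 11 and 26 cells, where 1 UMI is 45.5 and 19.2 CPM.

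Of 409 log2 values, 126 changed sign under at least 1 alternative and 67 under one other than thinning. Of the 166 at 1 or beyond in either direction 18 did, 8 of them under an alternative other than thinning, and of the 243 smaller ones 108 and 59. The cause was not tested. The values at 1 or beyond that changed sign follow. For cycling over non-cycling cells, thinning gave Cst3 0.31 and Lgals3 0.27 in the library labelled knockout, and H2-Aa 0.88, H2-Eb1 0.41, H2-Ab1 1.55, Dtymk -2.37, Hspa1a 0.96 and Hspa1b 0.06 in wild type. Plbd1 was 0.26 up to 20000 UMIs and 0.23 at 4000 to 15000 UMIs, H2-Aa 0.08 as a mean over cells (library labelled knockout), and Spp1 0.38 at 4000 to 15000 UMIs (wild type). Between genotypes, Hspa1a was -0.66 and Hspa1b -0.63 thinned. Up to 20000 and at 4000 to 15000 UMIs, Lgals7 was -0.49 and -0.82, Gzmc 0.18 and 0.17, Gzma 0.63 and 2.35, and Gzmd 0.60 and 0.73. Gzma was 1.87 and Gzmd 0.48 with a Cd4 UMI. Gzmd was 0.53 and Ifitm1 1.76 with Lyz2 and C1qb at 0, Gzmd 0.07 without the top cell, and Ifitm1 2.21 at 4000 to 15000 UMIs. Depth limits single genes in the 39 wild-type cycling cells, where 1 UMI is the smallest step of their sum of 426156 UMIs.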
